A study of Mus musculus with 36 samples.

Results

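Mouse embryonic stem cells (mESCs) kept for 48 h on soft StemBond hydrogels in serum + LIF were compared with cells kept for 24 h on the same kind of gel in the same medium. The comparison takes all 3 soft libraries collected at 48 h and all 3 collected at 24 h in serum + LIF, 6 of the 36 RNA sequencing libraries of the study. It covers every gene with enough counts to be tested, 17702 of the 49671 genes counted. The study grew wild-type mESCs of strain 129m on tissue culture plastic or on StemBond hydrogels, soft or stiff. A StemBond gel is polyacrylamide made with a co-factor that tethers the fibronectin coating. At 48 h the study varied the medium, which was serum with or without LIF and with or without PD03, an inhibitor of MEK, the kinase above ERK. The only 24 h groups are the soft and the stiff gel in serum + LIF. The soft 24 h and 48 h groups share strain, gel, coating and medium, and their labels differ only in time. Nothing in the labels says whether the 3 libraries of a group came from separate cultures, so the p-values measure only the spread between these libraries, which may be technical.

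The times also differed in sequencing pool. All 3 soft 24 h libraries were sequenced in the first of the 3 pools of the study and all 3 soft 48 h libraries in the third, on 1 flow cell, so within these 6 libraries time and pool cannot be told apart. Other groups were spread over pools, namely stiff 48 h in serum + LIF and soft 48 h in serum + PD03. A model of all 36 libraries could therefore hold a term for the pool, at a cost in precision. The columns of the count table do not say which library of those groups was in which pool, so the model was fitted for each of the 45 possible assignments. The number of assignments in which a gene passed is given for part of the genes named. Genes named beside them without it may have passed in fewer or in none. At most 1 of the 45 is the true one, and it is not known which. The number therefore describes the fits and is no measure of confidence in an effect of time.

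As background, mESCs correspond to the pre-implantation epiblast. LIF acts through STAT3 to hold the naive network of transcription factors, BMP acts through SMAD proteins to induce the Id genes, and Nodal and FGF/ERK signals favour the formative state of the epiblast after implantation. On rigid matrix cells build actin fibres and focal adhesions, and the transcription regulators SRF and YAP pass this state on to genes of actin, actin-binding proteins and matrix.

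Total counts ranged from 11124741 to 16539932 in the soft 24 h libraries and from 15267817 to 16204575 in the soft 48 h libraries, and this depth limits the precision for genes of low CPM, the count scaled to library size (counts per 1000000). No pair of libraries in these groups differed as little as sampling noise. Mitochondrially encoded genes took 1.13% to 1.53% of counts at 24 h and 0.626% to 1.44% at 48 h, with the lowest share in soft 48 h library 2. The 6 markers of embryonic stem cells summed to 2940 to 3236 CPM at 24 h and 3023 to 3226 CPM at 48 h. Summed markers of fibroblasts and feeders lay at 26.9 to 39.3 CPM at 24 h and 28.4 to 32.9 CPM at 48 h, with the fibroblast marker Fap at 0 in all 6 libraries. In bulk RNA, fewer cells of a type and less RNA per cell cannot be told apart.

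Between 24 h and 48 h on soft, 4315 of 17702 genes (24.4%) passed an adjusted p of 0.05 in edgeR's quasi-likelihood test. Of these, 2291 rose (12.9% of the genes tested) and 2024 fell (11.4%). Most changes were small, with 71.0% of the genes that passed at an absolute log2 fold change of 0.5 or less, while 59 rose and 312 fell by more than 1 on the log2 scale. Against a change of 0.5 in place of 0, 124 genes passed, 25 higher and 99 lower. With library totals alone in place of TMM scaling, 1395 genes were higher and 2913 lower. With the pool term, 345 to 813 genes passed, and the median SE over all genes went from 0.14 to between 0.29 and 0.30. In every assignment 96.6% to 98.8% of the genes that passed without the term kept their sign, and 62 genes passed in all 45, 29 of them higher and 33 lower at 48 h. The libraries of the 2 times did not overlap for 33.7% of all genes tested, which is the background for the statements on overlap below. Likewise, 12.9% higher and 11.4% lower are the background for every count of list members below.

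**Figure D1:**
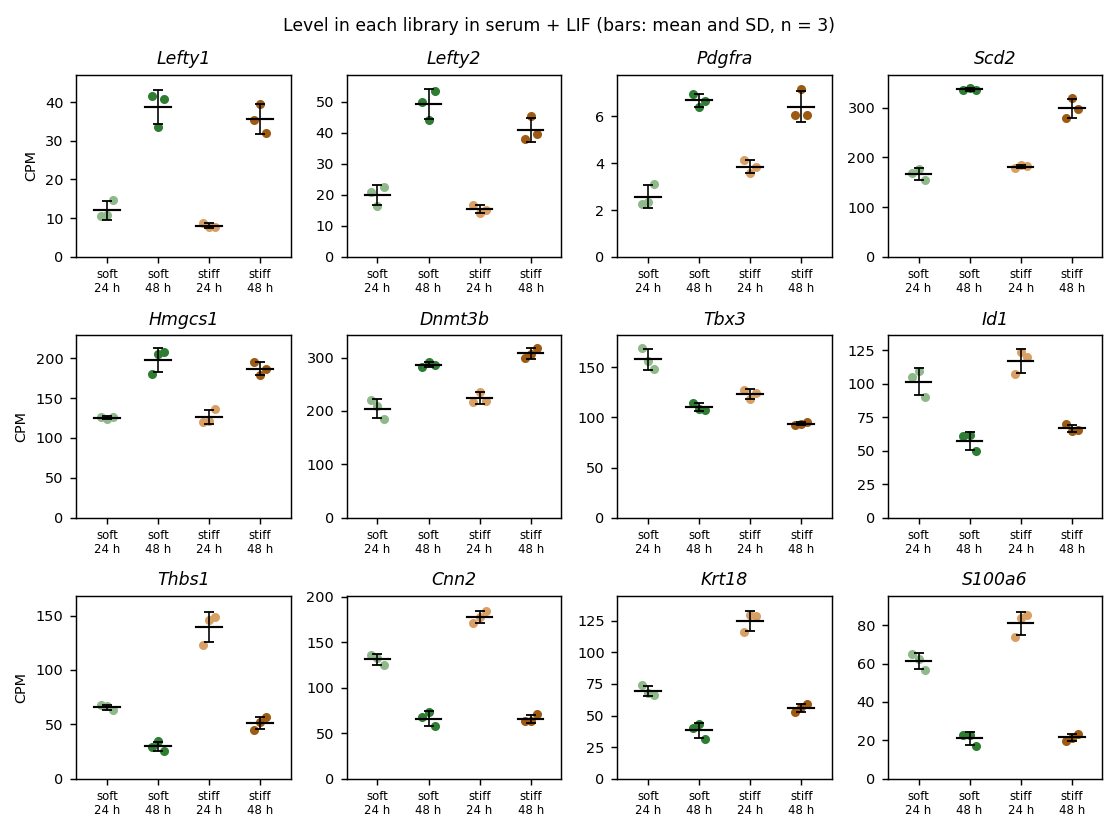
Level in CPM (vertical axes from 0) of 12 genes in each of the 3 libraries of soft and stiff hydrogels at 24 h and 48 h in serum + LIF; points are libraries, bars the mean and SD. On soft, the libraries of the 2 times do not overlap for any of the 12: Lefty1 lies at 10.5 to 14.7 CPM at 24 h and 33.7 to 41.6 CPM at 48 h, and Thbs1 at 62.8 to 67.3 CPM and 25.6 to 34.2 CPM.

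Among genes of at least 5 CPM whose libraries did not overlap, the largest increase was in Lefty1 (chr1:180935022-180938400, build GRCm38), which encodes a secreted inhibitor of Nodal and is itself a Nodal target. Lefty1 was at 10.5, 10.8 and 14.7 CPM at 24 h and 41.6, 33.7 and 40.8 CPM at 48 h. Every 48 h library lay far above every 24 h library, a 3.18-fold increase with a log2 fold change of 1.67 ± 0.11 (SE, adjusted p = 9.14e-16). Its neighbour Lefty2 (chr1:180893108-180899103), which encodes a related inhibitor, was at 20.9, 16.4 and 22.5 CPM at 24 h and 49.9, 44.1 and 53.6 CPM at 48 h, again without overlap, and its log2 fold change was 1.30 ± 0.10 (SE, adjusted p = 2.51e-14). Skil, which encodes a co-repressor that binds SMAD proteins and is induced by them, was at 179.6, 175 and 175 CPM at 24 h and 256, 262 and 281.49 CPM at 48 h, with a log2 fold change of 0.60 ± 0.05 (SE, adjusted p = 4.58e-13). Each of the 3 passed in 45 of the 45 assignments with the pool term.

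Nodal itself, the ligand, was at 41.2, 39.3 and 34.2 CPM at 24 h and 37.8, 39.2 and 38.4 CPM at 48 h. Its libraries overlapped and it did not pass, with a log2 fold change of 0.02 and an adjusted p of 0.913. Of the 19 genes of Nodal and TGF-beta signalling tested, 4 rose, 5 fell and 10 did not pass, with a median log2 fold change of 0.02 against -0.03 over all genes tested. Among those that fell was the ligand Tgfb2, from 6.5 ± 0.877 to 4.13 ± 0.501 CPM (log2 fold change -0.67), which passed in 4 of the 45 assignments.

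Targets of SRF and YAP fell. Of 26 tested, 21 were lower at 48 h, beside 11.4% of all genes, and their median log2 fold change was -0.54 against -0.03. None was higher in edgeR at an adjusted or unadjusted p under 0.05, nor in DESeq2. In the fits with a pool term 8 to 16 members were lower. Thbs1, which encodes the matrix glycoprotein thrombospondin 1, was at 67.3, 66.6 and 62.8 CPM at 24 h and 29.2, 34.2 and 25.6 CPM at 48 h. All 48 h libraries lay below all 24 h libraries, with a log2 fold change of -1.14 ± 0.08 (SE, adjusted p = 6.44e-15). Ccn1, which encodes a secreted matrix protein and is a standard YAP target, was at 97.5, 92.1 and 75 CPM at 24 h and 40.4, 53 and 32.4 CPM at 48 h, also without overlap, with a log2 fold change of -1.07 ± 0.10 (SE, adjusted p = 8.08e-12). Both passed in 45 of the 45 assignments.

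Muscle-type actins and several actin-binding proteins also fell. Acta1, the skeletal muscle actin, was low and went from 6.44 ± 0.345 to 2.90 ± 0.586 CPM (log2 fold change -1.15), passing in 25 of the 45 assignments, and Acta2, the smooth muscle actin, went from 16.9 ± 1.80 to 7.82 ± 2.02 CPM (log2 fold change -1.11), passing in 30. Cnn2, which encodes the actin-binding calponin 2, was at 136, 133 and 125 CPM at 24 h and 67.2, 73.2 and 57.6 CPM at 48 h. All 48 h libraries lay below all 24 h libraries, and its fitted level was 1.99 times as high at 24 h as at 48 h, with a log2 fold change of -0.99 ± 0.06 (SE, adjusted p = 9.5e-17), and it passed in 45 of the 45. Tagln, which encodes the actin-binding transgelin, went from 7.71 ± 1.86 to 4.16 ± 0.712 CPM (log2 fold change -0.86), Flnc, the actin cross-linker filamin C, from 88.1 ± 5.003 to 52.0 ± 5.85 CPM (log2 fold change -0.76), and Tpm1, a tropomyosin along the filament, from 182 ± 6.13 to 126 ± 8.84 CPM (log2 fold change -0.53). Vcl, which encodes the focal adhesion protein vinculin, did not pass, at 118, 119.9 and 109 CPM at 24 h and 106, 110.2 and 102 CPM at 48 h with overlapping libraries and an adjusted p of 0.076.

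Because SRF binds the CArG box, a run of bases of A or T between CC and GG, the promoters of these genes were searched for it on both strands in the 250 bases before each start site in RefSeq. Of 22 genes of the list with a promoter in the table, 8 held a perfect box, beside 1.62% of the 27025 genes with a promoter. The list was chosen as targets of SRF and YAP, so a high share may follow from that choice alone and is no result of these data. The genes Actg1, Myl9, Srf, Fhl1 and Fhl2 are named here because their promoter holds the box, a choice made after their values were seen. Windows around the box follow for Acta1, Cnn2, Myl9, Srf, Vcl and Actg1, while those of Fhl1 and Fhl2 are not printed. The windows run 5′ to 3′ on the strand of the gene, with the box in capitals and positions in GRCm38.p6. These promoters can thus be compared with how each gene moved.
Acta1, chr8:123894804-123894883, minus strand: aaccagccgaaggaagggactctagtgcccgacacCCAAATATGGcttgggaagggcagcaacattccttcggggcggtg
Cnn2, chr10:79988509-79988588, plus strand: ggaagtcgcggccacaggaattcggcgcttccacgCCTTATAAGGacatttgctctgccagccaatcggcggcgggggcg
Myl9, chr2:156775268-156775347, plus strand: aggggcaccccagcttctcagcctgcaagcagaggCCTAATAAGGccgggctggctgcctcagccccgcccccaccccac
Srf, chr17:46556180-46556279, minus strand: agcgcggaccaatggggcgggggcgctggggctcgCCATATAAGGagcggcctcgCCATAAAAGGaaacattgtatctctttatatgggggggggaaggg
Vcl, chr14:20929148-20929215, plus strand: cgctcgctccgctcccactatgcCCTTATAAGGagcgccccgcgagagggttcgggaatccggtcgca
Actg1, chr11:120348541-120348620, minus strand: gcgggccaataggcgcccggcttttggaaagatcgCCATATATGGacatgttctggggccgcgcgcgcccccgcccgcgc

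Genes with a box moved to unlike degrees. Myl9, which encodes a regulatory light chain of myosin, was at 24, 25 and 25.3 CPM at 24 h and 13.2, 13.8 and 13.3 CPM at 48 h, with all 48 h libraries below all 24 h libraries and a log2 fold change of -0.88 ± 0.10 (SE, adjusted p = 1.09e-09). Srf, which encodes the factor itself and has 2 boxes, went from 126 ± 6.71 to 104 ± 2.81 CPM (log2 fold change -0.28). Fhl1 and Fhl2, which encode LIM domain proteins, went from 56.3 ± 2.98 to 46.7 ± 3.94 CPM (log2 fold change -0.27) and from 2.5 ± 0.257 to 1.45 ± 0.14 CPM (log2 fold change -0.80). Actg1, the cytoplasmic gamma-actin, did not pass, at 1070 to 1015 CPM and an adjusted p of 0.376, as Vcl did not. CATTCC, the core of the motif of TEAD, the DNA-binding partner of YAP, was in 12 of the 22 promoters and in 14.4% of all promoters. This share too may follow from the choice of the list. A match describes these letters only, and no binding was measured.

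Epithelial keratins fell with the actin genes. Krt8 and Krt18 encode the paired keratins of simple epithelia. Krt8 was at 92.6, 76.2 and 76.2 CPM at 24 h and 46.7, 50.1 and 39.6 CPM at 48 h, without overlap, with a log2 fold change of -0.84 ± 0.08 (SE, adjusted p = 9.6e-11). Krt18 went from 69.5 ± 4.24 to 38.4 ± 6.002 CPM (log2 fold change -0.85) and Krt19, another simple keratin, from 29.3 ± 2.25 to 13.9 ± 1.71 CPM (log2 fold change -1.08), passing in 45 and 33 of the 45 assignments. Cldn3, a claudin of tight junctions at a low level, went from 5.13 ± 2.28 to 2.55 ± 0.511 CPM (log2 fold change -0.97). Cdh1, which encodes E-cadherin, did not pass, at 442 to 420.2 CPM and an adjusted p of 0.263. In all, 8 of 16 genes of epithelial junctions and intermediate filaments fell and 3 rose, beside 11.4% and 12.9% of all genes. With the pool term 2 to 7 were lower.

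Genes by which cells hold and remodel matrix fell in part. Of 19 integrins and matrix remodelling genes, 7 fell, beside 11.4% of all genes, with a median log2 fold change of -0.34. Without the pool term none rose in edgeR at an adjusted or unadjusted p under 0.05, nor in DESeq2. With the pool term 0 to 4 were lower and 0 to 1 higher. Itga3, the alpha subunit of a laminin receptor, was at 142, 145 and 129.9 CPM at 24 h and 86.0, 90.8 and 78.0 CPM at 48 h, without overlap and with a log2 fold change of -0.71 ± 0.07 (SE, adjusted p = 4.62e-11), and passed in 35 of the 45 assignments. Itgb4, the beta subunit of the hemidesmosome integrin, went from 19.3 ± 1.39 to 13.3 ± 0.905 CPM (log2 fold change -0.53). Plaur, the urokinase receptor, went from 29.3 ± 0.323 to 19.6 ± 1.33 CPM (log2 fold change -0.58), and Timp3, an inhibitor of matrix metalloproteinases, from 10.3 ± 1.52 to 6.54 ± 1.10 CPM (log2 fold change -0.66). Itgb4, Plaur and Timp3 passed in 14, 9 and 7 of the 45 assignments.

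Among 15 basement membrane genes, 3 rose and 6 fell. Hspg2, which encodes perlecan, was at 1181, 1274 and 1330 CPM at 24 h and 935, 832 and 852 CPM at 48 h, with a log2 fold change of -0.53 ± 0.07 (SE, adjusted p = 6.32e-08), and Agrn, which encodes agrin, went from 228 ± 6.07 to 162 ± 15.3 CPM (log2 fold change -0.49). The laminin chains diverged, Lamb1 going from 152 ± 7.22 to 184 ± 6.81 CPM (log2 fold change 0.28) and Lamb2 from 23.6 ± 0.986 to 19.7 ± 0.741 CPM (log2 fold change -0.26). Of 36 collagen genes tested, 2 rose and 5 fell, beside 12.9% and 11.4% of all genes, so that the number lower was near the background. Among those that fell were Col7a1, the collagen of anchoring fibrils, from 6.76 ± 0.487 to 3.38 ± 0.506 CPM (log2 fold change -0.996), and Col5a1, a fibrillar collagen, from 21.3 ± 1.19 to 15.9 ± 2.96 CPM (log2 fold change -0.42).

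**Figure D2:**
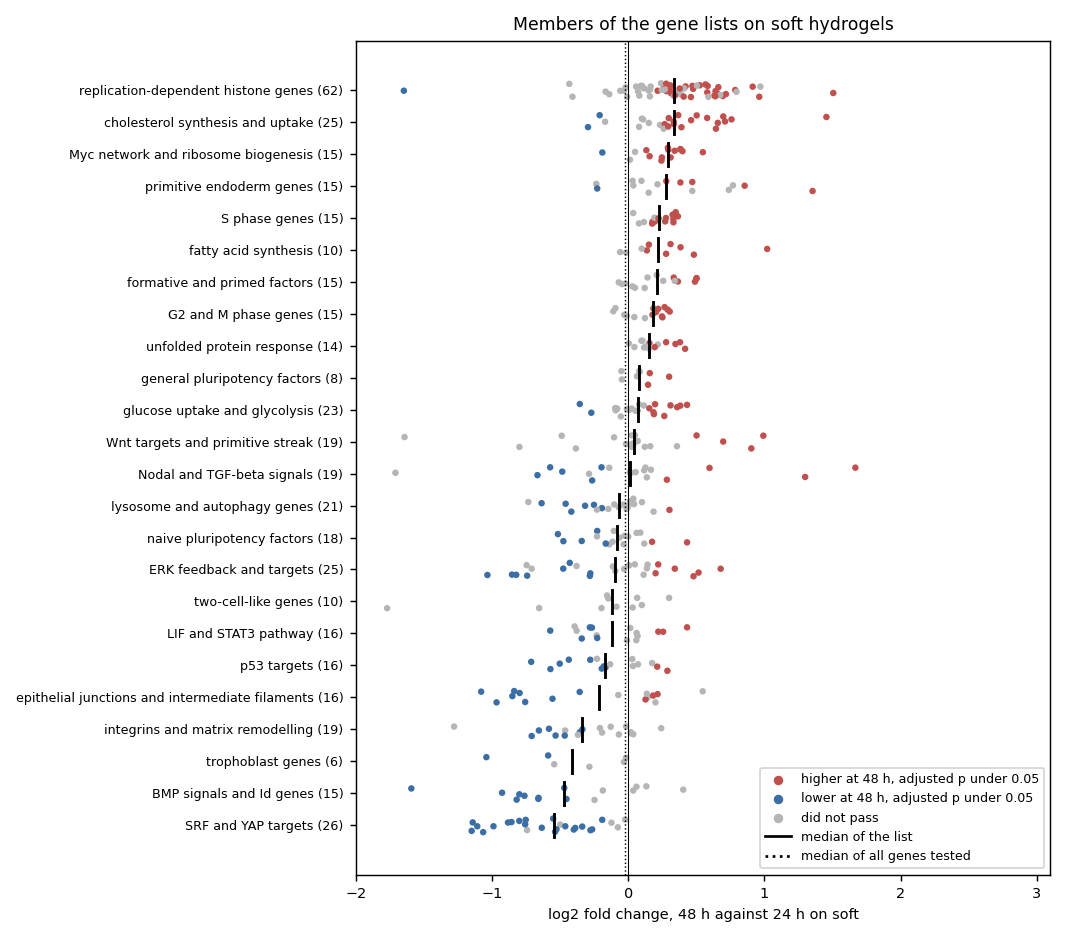
Log2 fold change of 48 h against 24 h on soft (horizontal axis) for each tested member of 24 gene lists (vertical axis, with the number tested), coloured by call; the solid mark is the median of a list and the dotted line that of all genes tested. SRF and YAP targets have the lowest median, at -0.54, while replication-dependent histones and cholesterol synthesis, at 0.34 and 0.33, lie at the upper end.

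BMP targets fell too. Of 15 genes of BMP signalling and Id genes, 9 were lower at 48 h, beside 11.4% of all genes, and none higher, with a median log2 fold change of -0.47. In DESeq2 none was higher, and at an unadjusted p under 0.05 in edgeR 1 was. The Id genes encode helix-loop-helix proteins that bind and block differentiation factors and respond directly to SMADs. Id1 was at 105, 109 and 90.2 CPM at 24 h and 60.8, 61.8 and 49.6 CPM at 48 h. Every 48 h library lay below every 24 h library, with a log2 fold change of -0.82 ± 0.10 (SE, adjusted p = 5.25e-09), and it passed in 25 of the 45 assignments. Id2 was at 107, 102 and 95.2 CPM at 24 h and 62.1, 67.6 and 61.9 CPM at 48 h, with a log2 fold change of -0.66 ± 0.06 (SE, adjusted p = 3.01e-12) and 45 of the 45 assignments passed. Smad6, an inhibitory SMAD induced by BMP, went from 27.5 ± 0.908 to 14.4 ± 1.42 CPM (log2 fold change -0.93), passing in 41. The homeobox gene Msx2, Id4 and the ligand Bmp4 went from 9.96 ± 0.965 to 5.83 ± 1.34 CPM (log2 fold change -0.76), 5.07 ± 0.765 to 3.20 ± 0.545 CPM (log2 fold change -0.66) and 108 ± 11.7 to 78.8 ± 7.17 CPM (log2 fold change -0.45). With the pool term 1 to 6 members were lower.

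Genes of the ERK response moved both ways, with 6 of 25 up, 8 down and 11 that did not pass. Phlda1, which encodes a pleckstrin homology domain protein, was at 54.9, 55.0 and 53.9 CPM at 24 h and 30.2, 24.9 and 24.8 CPM at 48 h, without overlap, with a log2 fold change of -1.03 ± 0.09 (SE, adjusted p = 8.59e-13), and passed in 45 of the 45 assignments. Jun and Fosl1, which encode parts of the AP-1 factor, went from 14.5 ± 1.02 to 8.16 ± 0.761 CPM (log2 fold change -0.82) and from 8.91 ± 1.58 to 5.35 ± 1.28 CPM (log2 fold change -0.74). Egr1, an immediate early gene of ERK, rose from 30.5 ± 1.23 to 48.7 ± 7.30 CPM (log2 fold change 0.68), and Spry4, a feedback inhibitor of the pathway, from 113 ± 4.84 to 131 ± 0.468 CPM (log2 fold change 0.22). Jun, Fosl1, Egr1 and Spry4 passed in 24, 1, 7 and 0 of the 45 assignments. Dusp6, of the Dusp genes that the paper names as known ERK targets, did not pass. It was at 72.1 to 70.4 CPM, with overlapping libraries and an adjusted p of 0.832 in edgeR.

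General pluripotency factors moved little. Pou5f1, which encodes OCT4, was at 627, 569.9 and 474 CPM at 24 h and 593, 611 and 565 CPM at 48 h, with overlapping libraries and an adjusted p of 0.408. Sox2, its partner, rose slightly from 265 ± 6.03 to 294 ± 9.22 CPM (log2 fold change 0.14). The paired genes Dppa2 and Dppa4, which encode chromatin-associated proteins of pluripotent cells, went from 194 ± 8.79 to 238 ± 8.53 CPM (log2 fold change 0.30) and from 109.9 ± 0.919 to 123 ± 9.24 CPM (log2 fold change 0.16). With library totals alone as the scaling, 1 of the 8 general factors was higher and 1 lower, in place of 3 and 0.

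Of 18 naive factors, 5 fell, 2 rose and 11 did not pass, with a median log2 fold change of -0.09. Tbx3, a T-box factor of the naive network, was at 169, 156 and 148 CPM at 24 h and 115, 109 and 107 CPM at 48 h. All 48 h libraries lay below all 24 h libraries, with a log2 fold change of -0.52 ± 0.05 (SE, adjusted p = 2.76e-11), and Tbx3 passed in 45 of the 45 assignments. Tfcp2l1 and Klf4, both downstream of LIF, went from 287 ± 7.42 to 227 ± 11.2 CPM (log2 fold change -0.34) and from 212 ± 12.2 to 181 ± 1.88 CPM (log2 fold change -0.23), and Dppa3, a maternal-effect gene expressed in naive cells, from 28.1 ± 2.36 to 20.1 ± 2.96 CPM (log2 fold change -0.48). The nuclear receptor gene Esrrb went from 414 ± 23.5 to 369 ± 9.64 CPM (log2 fold change -0.17), a call that held in 3 of the 6 fits with a library left out and in 0 of the 45 assignments, and that ended when an offset for the GC content of transcripts was added to the model (adjusted p = 0.211 in edgeR). Nanog did not pass, at 280.0, 268 and 244 CPM at 24 h and 228, 247 and 243 CPM at 48 h with overlapping libraries and an adjusted p of 0.0698. Gbx2, a LIF target among the naive genes, rose from 57.8 ± 2.1 to 77.8 ± 1.88 CPM (log2 fold change 0.43). Tfcp2l1, Klf4, Dppa3 and Gbx2 passed in 15, 8, 0 and 5 of the 45 assignments.

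Formative genes rose where they passed, 5 of 15, beside 12.9% of all genes, with a median log2 fold change of 0.21. None was lower in edgeR at an adjusted or unadjusted p under 0.05, nor in DESeq2. Dnmt3a and Dnmt3b encode the de novo DNA methyltransferases that rise when mESCs leave the naive state. Dnmt3b was at 220.0, 209 and 184 CPM at 24 h and 282, 291 and 287 CPM at 48 h, without overlap, with a log2 fold change of 0.49 ± 0.06 (SE, adjusted p = 2.61e-08), and Dnmt3a was at 96.4, 108 and 106 CPM at 24 h and 146, 140.0 and 155 CPM at 48 h, with a log2 fold change of 0.50 ± 0.06 (SE, adjusted p = 1.62e-09). They passed in 32 and 37 of the 45 assignments. Lef1, a transcription factor of the Wnt pathway, went from 35.4 ± 3.86 to 49.8 ± 3.19 CPM (log2 fold change 0.50), and the formative factors Otx2 and Pou3f1 from 15 ± 1.85 to 19.2 ± 2.17 CPM (log2 fold change 0.36) and from 33.6 ± 1.67 to 42.3 ± 2.03 CPM (log2 fold change 0.33), with the libraries of Otx2 overlapping. Lef1, Otx2 and Pou3f1 passed in 2, 0 and 4 of the 45 assignments. Given a pool term, 0 to 3 formative genes were higher.

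The LIF pathway was divided, with 3 of 16 genes up, 5 down and 8 that did not pass. The receptor gene Lifr rose from 174 ± 5.06 to 207 ± 11.2 CPM (log2 fold change 0.26). Bcl3 and Junb, which respond to STAT3, fell from 137 ± 3.42 to 113 ± 9.98 CPM (log2 fold change -0.27) and from 27 ± 3.07 to 22 ± 1.24 CPM (log2 fold change -0.28). Both passed in 0 of the 45 assignments and neither with the GC offset (adjusted p = 0.148 and 0.283 in edgeR), and with a library left out Bcl3 passed in 5 and Junb in 1 of 6 fits. Larger clusters of genes that the study took from published epiblast profiles also moved both ways. Of 137 genes of the pre-implantation cluster 17 rose and 43 fell, and of 197 of the post-implantation cluster 40 rose and 51 fell, with medians of -0.07 and -0.0029. Over all genes 12.9% rose and 11.4% fell, so that the number of pre-implantation genes higher was near the background. Across the pool assignments, 1 to 5 and 3 to 14 members of the 2 clusters were higher, and 4 to 16 and 5 to 14 lower. With library totals alone as the scaling, 9 of the pre-implantation cluster rose and 51 fell, and 27 of the post-implantation cluster rose and 66 fell. With an offset for GC content the post-implantation counts turned to 47 higher and 32 lower.

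Lineage genes were low at both times and differed by lineage. Primitive endoderm is the extraembryonic layer that lines the blastocyst cavity. Its 6 markers summed to 27.6 to 31.1 CPM at 24 h and 31.4 to 41.5 CPM at 48 h. These ranges did not overlap but nearly met. Of the 6, only Pdgfra passed, so the sums show no rise of the markers as a set. Of 15 genes listed for this layer 5 rose and 1 fell. Pdgfra, a receptor of the layer, was at 2.27, 2.33 and 3.12 CPM at 24 h and 6.96, 6.41 and 6.67 CPM at 48 h. Its log2 fold change, 1.35 ± 0.21 (SE, adjusted p = 1.58e-06), was the second largest increase of the protein-coding genes named, after Lefty1, and it passed in 21 of the 45 assignments. The endocytic receptor Cubn and its adaptor Dab2 went from 25.1 ± 4.75 to 35.1 ± 2.75 CPM (log2 fold change 0.47) and from 21 ± 1.42 to 27.3 ± 1.30 CPM (log2 fold change 0.38). Cubn and Dab2 passed in 2 and 3 of the 45 assignments. The master regulators Gata4 and Gata6 did not pass, at 5.005 to 6.84 CPM (adjusted p = 0.0705) and 7.37 to 8.48 CPM (adjusted p = 0.423).

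Of 19 Wnt targets and primitive streak genes, 4 rose and none fell in edgeR. There was 1 lower at an unadjusted p under 0.05 and 1 in DESeq2. T (Brachyury), the streak regulator, was at 4.44, 1.65 and 2.6 CPM at 24 h and 4.83, 7.05 and 4.97 CPM at 48 h, with a log2 fold change of 0.99 ± 0.27 (SE, adjusted p = 0.00413), and Dkk1, a secreted Wnt inhibitor, went from 1.999 ± 0.144 to 3.25 ± 0.5 CPM (log2 fold change 0.70). Mixl1, a streak homeobox gene, was at 1.22, 1.44 and 0.52 CPM at 24 h and 2.01, 1.71 and 2.09 CPM at 48 h, and passed with an adjusted p of 0.0488. These 3 passed in 4, 0 and 0 of the 45 assignments. The summed level of the 6 markers of mesoderm and streak, T and Mixl1 among them, was 12.5 to 17.7 CPM at 24 h and 16.3 to 18.2 CPM at 48 h, with overlap. The Wnt target Axin2 did not pass, at 32.4 to 33.9 CPM and an adjusted p of 0.594 in edgeR.

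Trophoblast markers summed to 32.8 to 38.0 CPM at 24 h and 17.1 to 25 CPM at 48 h, without overlap, while Tpbpa, a marker of the spongiotrophoblast, was at 0 in all 6 libraries. Gata3, a trophoblast regulator also found in other epithelia, accounted for much of this sum, at 23.1, 24.4 and 19.3 CPM at 24 h and 11.5, 13 and 7.65 CPM at 48 h. Its log2 fold change was -1.04 ± 0.10 (SE, adjusted p = 7.09e-11), and it passed in 45 of the 45 assignments. Krt7, a keratin, went from 4.87 ± 0.617 to 3.21 ± 0.661 CPM (log2 fold change -0.59). The keratin genes Krt8, Krt18 and Krt19, which trophoblast also expresses, fell along with this sum, and the part of such cells in their values was not tested. Gata3 and Krt7 were the members that fell of 6 tested, and none rose in edgeR at an adjusted or unadjusted p under 0.05, nor in DESeq2.

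Summed markers of neuroectoderm lay at 52.5 to 57.8 CPM at 24 h and 49.7 to 58.0 CPM at 48 h, with overlap. Of 7 neuroectoderm genes tested 1 fell, the tubulin gene Tubb3, from 48.9 ± 1.73 to 41.7 ± 4.63 CPM (log2 fold change -0.23), and of 9 fibroblast and feeder genes 1 rose, Thy1, from 7.38 ± 1.16 to 11.4 ± 0.689 CPM (log2 fold change 0.62), and 1 fell, the collagen gene Col1a2, from 2.89 ± 0.591 to 1.55 ± 0.232 CPM (log2 fold change -0.89). Of 10 genes of the rare two-cell-like state, 0 passed in edgeR or in DESeq2, and 1 had an unadjusted p under 0.05. Of 13 germline genes 1 passed, Stk31, a kinase gene, from 4.68 ± 0.897 to 8.39 ± 1.41 CPM (log2 fold change 0.86).

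Genes of cholesterol synthesis rose. Of 25 genes of cholesterol synthesis and uptake, 16 rose, beside 12.9% of all genes, 2 fell, and the median log2 fold change was 0.33. With the pool term 5 to 10 were higher. Hmgcs1 encodes the synthase that makes HMG-CoA and was at 127, 123 and 126 CPM at 24 h and 180.2, 205 and 208 CPM at 48 h. All 48 h libraries lay above all 24 h libraries, with a log2 fold change of 0.66 ± 0.05 (SE, adjusted p = 6.82e-13). It passed in 45 of the 45 assignments. Cyp51, a demethylase of the sterol ring, went from 33.7 ± 0.385 to 55.2 ± 5.04 CPM (log2 fold change 0.71), the isomerase Idi1 from 20.2 ± 1.40 to 32.7 ± 3.95 CPM (log2 fold change 0.70), and Insig1, the sterol-responsive regulator that holds SREBP in the endoplasmic reticulum, from 25.3 ± 3.91 to 42.7 ± 3.84 CPM (log2 fold change 0.76).

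SREBP, the regulator of these genes, binds sterol response elements, often with NF-Y at a CCAAT box nearby. Both strands of the 250 bases before each start were searched for TCACNCCAC and for CCAAT. The first was in 1 of 17 cholesterol genes with a promoter in the table, Hmgcs1, and in 1.23% of all genes with a promoter, and the second in 16 of the 17 and in 37.5% of all. The Hmgcs1 promoter is given because it held both. It runs from chr13:119690101-119690330 on the plus strand of GRCm38.p6, with the sterol response element and 3 CCAAT boxes, read as ATTGG from the other strand, in capitals.
Hmgcs1: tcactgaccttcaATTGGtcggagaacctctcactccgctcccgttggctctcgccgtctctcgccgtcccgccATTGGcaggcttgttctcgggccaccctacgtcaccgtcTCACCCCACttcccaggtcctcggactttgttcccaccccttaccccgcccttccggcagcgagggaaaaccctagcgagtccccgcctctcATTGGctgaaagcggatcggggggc

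Fatty acid genes rose beside them, 7 of 10, against 12.9% of all genes. None fell in edgeR at an adjusted or unadjusted p under 0.05, nor in DESeq2. With library totals alone 5 rose and 1 fell, and with the GC offset 7 rose and 1 fell. With the pool term 1 to 4 were higher. Scd2, a desaturase that makes monounsaturated fatty acids, was at 168, 177 and 154 CPM at 24 h and 336, 340.2 and 335 CPM at 48 h. Its 48 h level was 2.03 times its 24 h level, with a log2 fold change of 1.02 ± 0.06 (SE, adjusted p = 8.2e-18), and it passed in 45 of the 45 assignments. Its relative Scd1 went from 52.7 ± 0.324 to 73.6 ± 4.65 CPM (log2 fold change 0.48), Acaca, the carboxylase of the first committed step, from 81.2 ± 1.04 to 106 ± 4.90 CPM (log2 fold change 0.38), and Acsl3, which activates fatty acids, from 42.9 ± 3.39 to 53 ± 3.58 CPM (log2 fold change 0.31). Fasn, the fatty acid synthase, went from 752 ± 8.50 to 835 ± 23.5 CPM (log2 fold change 0.15), and passed in 0 of the 45.

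Genes of the dividing cell rose by small amounts. Of 15 S phase genes 11 rose, and of 15 G2 and M phase genes 9 rose, beside 12.9% of all genes, with medians of 0.22 and 0.18. None of either list fell in edgeR at an adjusted or unadjusted p under 0.05, nor in DESeq2. With library totals alone 7 S phase genes rose, and 7 G2 and M phase genes rose while 2 fell. With the pool term 0 to 6 S phase genes and 0 to 5 G2 and M phase genes were higher. Pcna, the clamp of replication, was at 504.23, 482 and 468 CPM at 24 h and 616, 648 and 586 CPM at 48 h, without overlap. Rrm2 and Rrm1, the subunits of ribonucleotide reductase, went from 189.7 ± 18.1 to 244 ± 21.5 CPM (log2 fold change 0.36) and from 171 ± 9.56 to 215 ± 15.1 CPM (log2 fold change 0.33), and the helicase subunit Mcm3 from 359 ± 17.9 to 452 ± 7.37 CPM (log2 fold change 0.33). Top2a, Ccna2 and Cenpe, which act in chromosome condensation, the G2 transition and the kinetochore, went from 641 ± 15.6 to 783 ± 40.3 CPM (log2 fold change 0.29), 363 ± 17.2 to 436 ± 28.6 CPM (log2 fold change 0.27) and 214 ± 10.1 to 264 ± 14.5 CPM (log2 fold change 0.30).

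Among G1 regulators, Cdkn1c, which encodes the inhibitor p57, was at 34, 40.3 and 35.3 CPM at 24 h and 68.4, 68.1 and 58.4 CPM at 48 h. It rose without overlap, with a log2 fold change of 0.83 ± 0.09 (SE, adjusted p = 2.09e-10), and passed in 43 of the 45 assignments. Cdkn1a, which encodes the inhibitor p21, was at 30.5, 30.7 and 30.9 CPM at 24 h and 22.4, 17.5 and 16.3 CPM at 48 h, and fell with a log2 fold change of -0.71 ± 0.09 (SE, adjusted p = 1.21e-08), passing in 38. The cyclins Ccnd2 and Ccne2 went from 70.6 ± 4.12 to 98.5 ± 3.06 CPM (log2 fold change 0.48) and from 18.6 ± 3.65 to 25.5 ± 1.69 CPM (log2 fold change 0.44).

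Cdkn1a is also a target of p53, and 8 of 16 such targets fell while 2 rose, beside 11.4% and 12.9% of all genes. With the pool term 1 to 4 were lower. The antiproliferative gene Btg2, the AKT inhibitor Phlda3 and the polo-like kinase Plk2 went from 26.8 ± 0.468 to 18.1 ± 1.09 CPM (log2 fold change -0.57), 66.1 ± 4.83 to 46.4 ± 7.36 CPM (log2 fold change -0.50) and 61.2 ± 9.07 to 44.9 ± 2.74 CPM (log2 fold change -0.44).

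Of 15 genes of the Myc network and ribosome biogenesis, 12 rose and 1 fell, beside 12.9% and 11.4% of all genes, with a median log2 fold change of 0.29. With library totals alone 9 rose and 1 fell, and with the pool term 1 to 7 were higher. Odc1, the first enzyme of polyamine synthesis and a direct Myc target, was at 518, 489 and 425 CPM at 24 h and 663, 729 and 699 CPM at 48 h, without overlap, with a log2 fold change of 0.55 ± 0.06 (SE, adjusted p = 4.52e-10). Mycn went from 206 ± 9.24 to 268 ± 3.66 CPM (log2 fold change 0.38), Myc from 234 ± 3.01 to 286 ± 22.2 CPM (log2 fold change 0.29), and Mxi1, which encodes a competitor of Myc for its partner, from 27.9 ± 1.52 to 36.9 ± 0.93 CPM (log2 fold change 0.40). Mycn passed in 41 of the 45 assignments and Myc in 0. Of 85 ribosomal protein genes 22 rose and 11 fell, a split that library totals alone turned to 10 and 21.

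Replication-dependent histone genes, whose transcripts are made in S phase and mostly lack a poly(A) tail, rose for 30 of 62 tested, beside 12.9% of all genes, and fell for 1, with a median log2 fold change of 0.34. With library totals alone 22 rose, and with the pool term 1 to 11 were higher. Hist1h4a was at 260.5, 213 and 246 CPM at 24 h and 451, 502 and 447 CPM at 48 h, with a log2 fold change of 0.96 ± 0.09 (SE, adjusted p = 1.43e-11) and 43 of the 45 assignments passed, and Hist3h2ba went from 12 ± 2.41 to 20.4 ± 3.15 CPM (log2 fold change 0.79). The member that fell, Hist1h3c, was at 61.2, 17.5 and 57.6 CPM at 24 h and 14.5, 15.6 and 13.1 CPM at 48 h, with 1 of the 24 h libraries near the 48 h level. Histone genes are near-identical copies of each other, so the division of reads between single members is uncertain.

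Metabolic genes moved in both directions. Of 23 genes of glucose uptake and glycolysis 9 rose and 2 fell. Ldha, the lactate dehydrogenase subunit of glycolytic cells, was at 734, 729.5 and 756 CPM at 24 h and 988, 1035 and 971 CPM at 48 h, without overlap, with a log2 fold change of 0.43 ± 0.05 (SE, adjusted p = 5.41e-10), and passed in 45 of the 45 assignments. The lactate carrier Slc16a1 went from 92 ± 9.88 to 119 ± 7.65 CPM (log2 fold change 0.38), while the glucose transporter gene Slc2a3 went from 519.9 ± 33.5 to 406 ± 27.1 CPM (log2 fold change -0.36). Of 17 hypoxia targets 3 rose and 5 fell, beside 12.9% and 11.4% of all genes. Egln3, an oxygen-sensing hydroxylase, went from 13.3 ± 0.603 to 22.5 ± 0.149 CPM (log2 fold change 0.76), against Bhlhe40, a repressor, from 36.6 ± 3.78 to 22.2 ± 0.745 CPM (log2 fold change -0.73), Ndrg1 from 18.9 ± 2.14 to 12.8 ± 0.733 CPM (log2 fold change -0.56) and the angiogenic ligand Vegfa from 18.1 ± 0.644 to 12.9 ± 1.32 CPM (log2 fold change -0.48).

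Of 26 genes of the amino acid response and serine synthesis, 5 rose and 5 fell. With library totals alone 5 rose and 9 fell. The serine synthesis enzymes Phgdh and Psat1 went from 44.5 ± 3.46 to 66.4 ± 7.40 CPM (log2 fold change 0.58) and from 142 ± 4.52 to 171 ± 12.8 CPM (log2 fold change 0.27), and the stress factor Atf5 from 25.5 ± 0.836 to 18.6 ± 2.95 CPM (log2 fold change -0.46). Of 75 nuclear genes of the respiratory chain 13 rose and 4 fell, beside 12.9% and 11.4% of all genes. Library totals alone turned this split to 7 and 12. Cox7c, a small subunit of cytochrome oxidase, went from 214 ± 3.22 to 288 ± 35.6 CPM (log2 fold change 0.43) and Ndufa1, a subunit of complex I, from 32.8 ± 3.66 to 25 ± 2.32 CPM (log2 fold change -0.39). Of 13 mitochondrially encoded protein genes 1 passed, mt-Nd3, another complex I subunit, at 0.871, 0.892 and 1.45 CPM at 24 h and 2.51, 2.29 and 2.22 CPM at 48 h.

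Several chaperones of the endoplasmic reticulum rose. Of 14 genes of the unfolded protein response 6 rose, beside 12.9% of all genes, and with the pool term 0 to 4 were higher. None fell in edgeR at an adjusted or unadjusted p under 0.05, nor in DESeq2. Hsp90b1, the HSP90 of the reticulum, was at 682, 688 and 711 CPM at 24 h and 862, 955 and 892 CPM at 48 h, without overlap, with a log2 fold change of 0.38 ± 0.05 (SE, adjusted p = 1.19e-08). Hspa5, which encodes BiP, went from 345 ± 16.8 to 438 ± 23.3 CPM (log2 fold change 0.35), the disulfide isomerase Pdia4 from 213 ± 6.80 to 258 ± 12.7 CPM (log2 fold change 0.28), and the response's transcription factor Xbp1 from 97.8 ± 2.48 to 130.5 ± 4.45 CPM (log2 fold change 0.42). Among 12 heat shock genes, 5 rose and 3 fell, a split that library totals alone turned to 3 and 4. Hspd1, the mitochondrial chaperonin, was at 962, 949.8 and 895 CPM at 24 h and 1218, 1341 and 1264 CPM at 48 h and passed in 45 of the 45 assignments, and the cytosolic Hsph1 went from 255 ± 7.26 to 323 ± 15.9 CPM (log2 fold change 0.34). The inducible HSP70 genes Hspa1a and Hspa1b, near-identical copies between which the division of reads is uncertain, went from 5.27 ± 1.22 to 3.06 ± 0.552 CPM (log2 fold change -0.77) and from 12.6 ± 1.55 to 9.75 ± 1.14 CPM (log2 fold change -0.36).

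Of 16 genes of the oxidative and metal response 3 rose and 5 fell, beside 12.9% and 11.4% of all genes. The NRF2 targets Hmox1, heme oxygenase, and Srxn1, sulfiredoxin, went from 134 ± 11.4 to 98.6 ± 8.15 CPM (log2 fold change -0.44) and from 28.6 ± 0.529 to 22.5 ± 0.831 CPM (log2 fold change -0.35). Of 21 lysosome and autophagy genes 1 rose and 6 fell. The autophagy kinase Ulk1 was at 278, 280.2 and 260.2 CPM at 24 h and 216, 206 and 191 CPM at 48 h, with a log2 fold change of -0.42 ± 0.05 (SE, adjusted p = 6.05e-10), and passed in 44 of the 45 assignments. The lysosomal enzyme Hexa, the lysosomal channel Mcoln1 and the autophagy receptor Sqstm1 went from 24.7 ± 0.774 to 15.9 ± 0.227 CPM (log2 fold change -0.64), 26.5 ± 3.13 to 19.3 ± 0.571 CPM (log2 fold change -0.46) and 195 ± 1.86 to 156 ± 6.65 CPM (log2 fold change -0.32).

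Among 22 imprinted genes 6 rose and 3 fell, a split that was level at 4 and 4 with library totals alone. Phlda2, a maternally expressed gene next to Cdkn1c in the same imprinted cluster, was at 71.8, 70.3 and 68.4 CPM at 24 h and 128, 129.98 and 113 CPM at 48 h, without overlap, with a log2 fold change of 0.82 ± 0.09 (SE, adjusted p = 1.68e-09), passing in 38 of the 45 assignments. The reciprocally imprinted neighbours Meg3 and Dlk1 moved apart, Meg3 from 158 ± 15.4 to 101.28 ± 36 CPM (log2 fold change -0.64) and Dlk1 from 7.10 ± 1.63 to 11 ± 1.22 CPM (log2 fold change 0.63), and Meg3 varied among the 48 h libraries. Of 11 Notch pathway genes, the ligand genes Jag1 and Dll1 rose, from 19.4 ± 2.47 to 31.9 ± 2.64 CPM (log2 fold change 0.73) and from 4.48 ± 0.519 to 7.54 ± 0.325 CPM (log2 fold change 0.76), and the receptor genes Notch1 and Notch3 fell, from 114 ± 5.27 to 84.6 ± 6.66 CPM (log2 fold change -0.43) and from 48.5 ± 3.92 to 40.1 ± 2.23 CPM (log2 fold change -0.27).

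Apart from the lists, the largest and most abundant changes were taken by rule. The 10 largest increases among genes of at least 5 CPM held Lefty1, Lefty2 and Pdgfra. Trh, which encodes thyrotropin-releasing hormone, was at 65.1, 54.1 and 66.2 CPM at 24 h and 134, 119.8 and 135 CPM at 48 h, without overlap, with a log2 fold change of 1.07 ± 0.09 (SE, adjusted p = 7.98e-13), and Csrnp3, a nuclear protein gene, went from 4.37 ± 0.738 to 9.21 ± 0.679 CPM (log2 fold change 1.10). Rn7s1 and Rn7s2, near-identical genes for the RNA of the signal recognition particle whose reads can be divided either way, went from 66.7 ± 4.63 to 152 ± 22.9 CPM (log2 fold change 1.19) and from 60.7 ± 11.8 to 133 ± 9.85 CPM (log2 fold change 1.15). Scarna10, a small RNA of Cajal bodies, Zfp989, a zinc finger gene, and Gm26461 went from 4.41 ± 1.34 to 9.23 ± 0.998 CPM (log2 fold change 1.10), 3.39 ± 1.77 to 8.39 ± 0.521 CPM (log2 fold change 1.25) and 6.06 ± 1.95 to 15.8 ± 2.75 CPM (log2 fold change 1.41).

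Of the 10 largest decreases, Gm10801, Gm10800, Gm26870 and Gm21738 are predicted genes with no known product, whose reads may be shared with copies elsewhere and are uncertain, and went from 44.9 ± 5.0003 to 10.02 ± 3.07 CPM (log2 fold change -2.17), 61 ± 9.57 to 13.7 ± 5.79 CPM (log2 fold change -2.15), 17.9 ± 7.14 to 4.28 ± 1.2 CPM (log2 fold change -2.04) and 15.4 ± 3.07 to 5.14 ± 2.23 CPM (log2 fold change -1.58). S100a6, which encodes a small calcium-binding protein, was at 65.2, 62.4 and 56.7 CPM at 24 h and 22.8, 23 and 17.2 CPM at 48 h. All 48 h libraries lay far below all 24 h libraries, with a log2 fold change of -1.54 ± 0.11 (SE, adjusted p = 2.44e-15). Cryab, the small heat shock protein alpha B-crystallin, was at 23, 24.9 and 17.5 CPM at 24 h and 9.09, 7.49 and 7.52 CPM at 48 h, with a log2 fold change of -1.43 ± 0.12 (SE, adjusted p = 2.51e-13), and Ahnak2, a large scaffold protein, went from 22.3 ± 1.37 to 8.06 ± 0.896 CPM (log2 fold change -1.47). These 3 passed in 45 of the 45 assignments. Prss23, a secreted protease, and Grin1, a glutamate receptor subunit, went from 5.29 ± 0.707 to 1.89 ± 0.465 CPM (log2 fold change -1.47) and from 5.01 ± 1.58 to 1.78 ± 0.361 CPM (log2 fold change -1.45).

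Among genes of high CPM, which is not corrected for length, the noncoding RNAs Rmrp and Rpph1, the RNA parts of RNase MRP and RNase P, went from 2360 ± 366 to 3841 ± 209 CPM (log2 fold change 0.70) and from 472 ± 50.2 to 914 ± 63.6 CPM (log2 fold change 0.96). Hnrnpa2b1, a splicing factor and RNA carrier, was at 1208, 1247 and 1237 CPM at 24 h and 1797, 1762 and 1776 CPM at 48 h, with a log2 fold change of 0.53 ± 0.04 (SE, adjusted p = 6.82e-13), and the histone variant gene H2afz went from 507 ± 27.1 to 776 ± 47.6 CPM (log2 fold change 0.62). The genes of high CPM that fell were, beside Hspg2, the scaffold genes Ahnak and Plec, from 421 ± 21.5 to 262 ± 7.75 CPM (log2 fold change -0.69) and from 358 ± 6.73 to 226 ± 13.9 CPM (log2 fold change -0.66), the myosin light chain gene Myl6, from 276 ± 1.25 to 188 ± 12.2 CPM (log2 fold change -0.55), and Ifitm3, an interferon-induced membrane protein, from 354 ± 6.26 to 243 ± 18.5 CPM (log2 fold change -0.54). Hnrnpa2b1, H2afz, Plec and Myl6 passed in 45 of the 45 assignments.

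**Figure D3:**
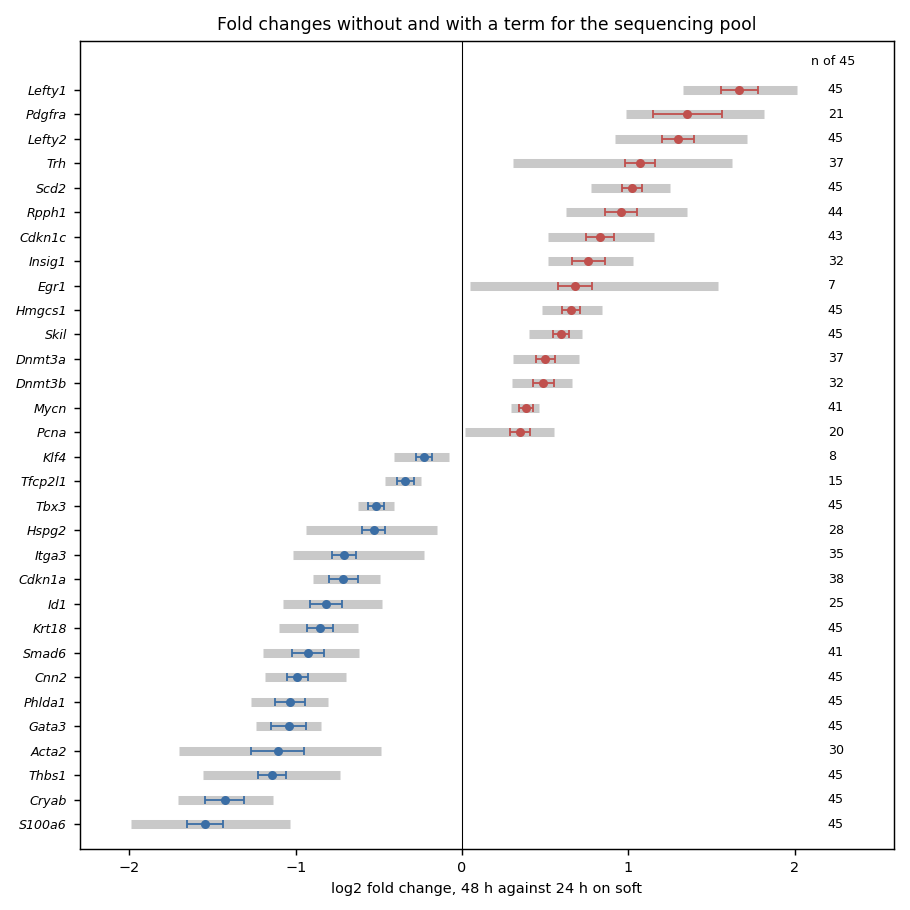
Log2 fold change of 48 h against 24 h on soft (horizontal axis) for genes named in the text (vertical axis); points are the values without a pool term with their SE, grey bars the range over the 45 assignments with the term, and the number at the right how many of the 45 passed. Lefty1 ranges from 1.33 to 2.01 and S100a6 from -1.99 to -1.03, both away from 0 throughout, while Egr1 comes close to 0 at its lower end of 0.05.

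Of the 161 genes named in the text that passed, 23 took the other sign in at least 1 of the 45 assignments. These were Tgfb2, Bmp4, Fhl1, Fhl2, Spry4, Lamb2, Col1a2, Thy1, Lef1, Pou3f1, T (Brachyury), Mixl1, Cubn, Krt7, Fasn, Ccnd2, Hist1h3c, Hspa1b, Dlk1, Dll1, H19, mt-Nd3 and Gm26461, whose direction therefore depends on that term. There were 17 of the 161 that passed in none of the assignments, namely Bcl3, Dkk1, Dll1, Dppa3, Dppa4, Esrrb, Fasn, Hspa1b, Id4, Junb, Lamb2, Meg3, Mixl1, Myc, Otx2, Spry4 and Tubb3.

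With 1 of the 6 libraries left out, 25 of the 161 did not pass in at least 1 fit, and all 25 kept their sign. Without soft 24 h library 1 these were Cldn3, Cubn, Esrrb, Hspa1b, Junb, Krt7, Lamb2, Mixl1, Tubb3 and mt-Nd3, at adjusted p of 0.0527 to 0.302 in edgeR. Without soft 24 h library 2 they were Col1a2, Cubn, Dppa4, Esrrb, Hspa1a, Hspa1b, Junb, Spry4, T (Brachyury), Tubb3 and mt-Nd3, at 0.0509 to 0.0935. Without soft 24 h library 3 they were Dppa4, Fasn, Fhl2, H19, Lamb2, Mixl1, Otx2 and Tubb3, at 0.0511 to 0.331. Without soft 48 h library 1 they were Dppa4, Fasn, H19, Id4, Junb, Mixl1, Sox2 and Tubb3, at 0.0566 to 0.182. Without soft 48 h library 2 they were H19, Hspa1b, Junb, Lamb2, Meg3, Mixl1 and Otx2, at 0.0635 to 0.0924, and without soft 48 h library 3 Bcl3, Col5a1, Esrrb, Fhl1, Fhl2, Hspa1b, Junb, Krt7, Lamb2, Mixl1 and Tubb3, at 0.0597 to 0.196.

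The stiff gel gives the same contrast in libraries that the soft one does not share, although its pools also differ between times. On stiff, 4535 genes (25.6%) passed, 12.6% of the genes tested higher and 13% lower. Of the genes called on soft, 2693 were called on stiff with the same sign, which is 62.4% of the soft and 59.4% of the stiff calls, and 5 with opposite signs. Lefty1 was at 8.74, 7.69 and 7.62 CPM at 24 h and 35.3, 39.6 and 32 CPM at 48 h on stiff, with a log2 fold change of 2.15 ± 0.11 (SE, adjusted p = 3.32e-20), and Thbs1 at 123, 146 and 149 CPM at 24 h and 45, 51.7 and 56.7 CPM at 48 h, with -1.44 ± 0.07 (SE, adjusted p = 2.26e-20). The SRF and YAP targets had a median log2 fold change of -0.92 on stiff against -0.54 on soft, with 25 against 21 members lower.

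**Figure D4:**
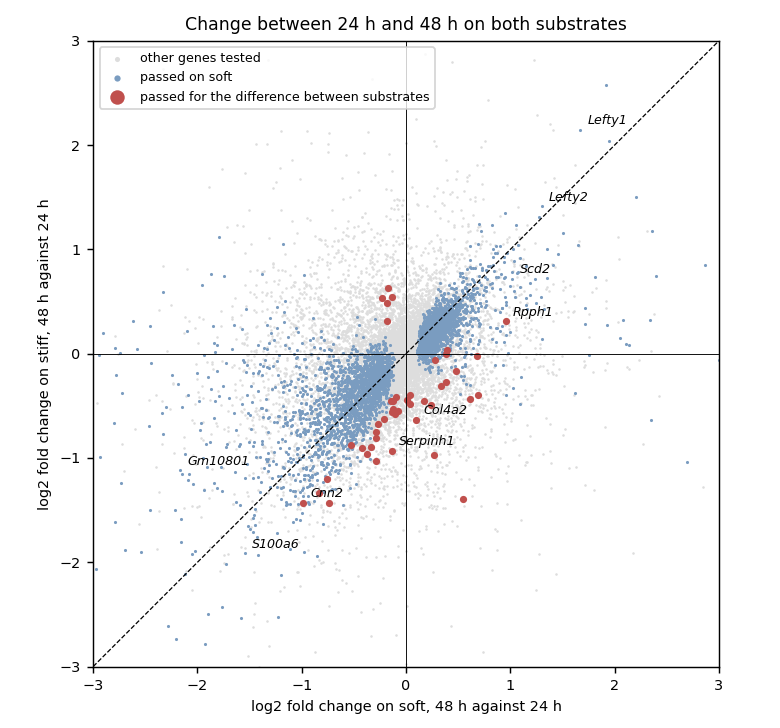
Log2 fold change of 48 h against 24 h on soft (horizontal axis) and on stiff (vertical axis) for the genes tested; 71 genes lie outside the axes of ±3. Points near the diagonal changed alike, and the 45 genes that passed for the difference between substrates lie mostly below it, as Col4a2 (0.10 on soft, -0.63 on stiff) and Serpinh1 (-0.14 and -0.93) do.

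The change over time differed between soft and stiff for 45 genes (0.254%) by the interaction term, 40 (0.226%) with the higher value of the change on soft and 5 (0.0282%) with the lower. At an unadjusted p under 0.05 there were 1853. The 40 genes did not rise on soft as a rule: 10 rose, 13 fell and 17 did not pass there, whereas 33 fell on stiff. All 40 were at a higher mean CPM on stiff than on soft at 24 h, levels that the interaction itself uses. Col4a2, a chain of basement membrane collagen, was at 43.6, 47.3 and 49.8 CPM at 24 h and 50.6, 54.4 and 45.9 CPM at 48 h on soft, with overlap, and at 75.4, 80.8 and 85.6 CPM at 24 h and 48.4, 54.4 and 53 CPM at 48 h on stiff. Its difference in log2 fold change was 0.73 ± 0.09 (SE, adjusted p = 8.78e-06). Serpinh1, the collagen chaperone HSP47, was at 35.3, 30.3 and 34.9 CPM at 24 h and 31.9, 32.1 and 27.1 CPM at 48 h on soft and at 55.7, 56.7 and 72.4 CPM at 24 h and 31.4, 32.6 and 33 CPM at 48 h on stiff, a difference of 0.79 ± 0.12 (SE, adjusted p = 0.000194).

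Amot, which encodes the YAP-binding scaffold angiomotin, rose on soft, at 24.5, 25.2 and 25.6 CPM at 24 h and 33.1, 38 and 34 CPM at 48 h, while on stiff its means were 39.8 to 35.4 CPM, a difference of 0.65 ± 0.11 (SE, adjusted p = 0.000715). The intermediate filament gene Nes went from 28.8 to 32.3 CPM on soft and from 50.9 to 37.3 CPM on stiff, and Dsp, the desmosomal plaque protein, from 102 to 76.1 CPM on soft and from 159.6 to 85.3 CPM on stiff, both falling on stiff and Dsp falling on soft too. Among the SRF and YAP targets Cnn2, Flnc, Tpm1 and Vcl passed, with differences of 0.44, 0.45, 0.35 and 0.33. No list was tested for a difference between substrates as a whole. The number of such genes was small and moved with single libraries, from 10 without soft 48 h library 2 to 188 without soft 48 h library 3, where library numbers only name columns. With the pool term 0 to 42 genes passed, and where 0 did, 1303 had an unadjusted p under 0.05.

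The change over time also moved with base composition. Among 12725 protein-coding genes, the decile with the lowest GC content in its transcripts had a median log2 fold change of 0.13, with 31.5% higher and 4.23% lower, and the decile with the highest GC content one of -0.15, with 4.56% higher and 27.1% lower. On stiff the medians ran from 0.15 to -0.15. With an offset for GC content added to the model after the data had been seen, the medians ran from 0.04 to -0.02, 3858 genes passed, and 3230 of them were among the 4315. Under this offset 21 SRF and YAP targets fell, 9 BMP and Id genes fell, 16 cholesterol genes rose and 32 histone genes rose, while the counts of other lists shifted. The balance of calls turned for the post-implantation cluster, which went from 40 higher and 51 lower to 47 and 32, and for Nodal and TGF-beta genes, which went from 4 higher and 5 lower to 6 and 3. It also turned for basement membrane genes from 3 higher and 6 lower to 5 and 4, LIF pathway genes from 3 higher and 5 lower to 4 and 3, and ERK genes from 6 higher and 8 lower to 8 and 7. For neuroectoderm genes it turned from 0 higher and 1 lower to 1 and 0. Without a turn, primitive endoderm genes went from 5 higher and 1 lower to 8 and 1, nuclear respiratory chain genes from 13 and 4 to 16 and 8, and hypoxia targets from 3 and 5 to 3 and 3. Genes of the amino acid response, level at 5 and 5 without it, went to 9 and 5. Of the 161 named genes that passed, 9 did not pass with it, Bcl3, Dppa4, Esrrb, Hspa1b, Junb, Lamb2, Mixl1, Notch3 and Tubb3, at adjusted p of 0.0563 to 0.402. The part of base composition in the single results was not tested further.

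**Figure D5:**
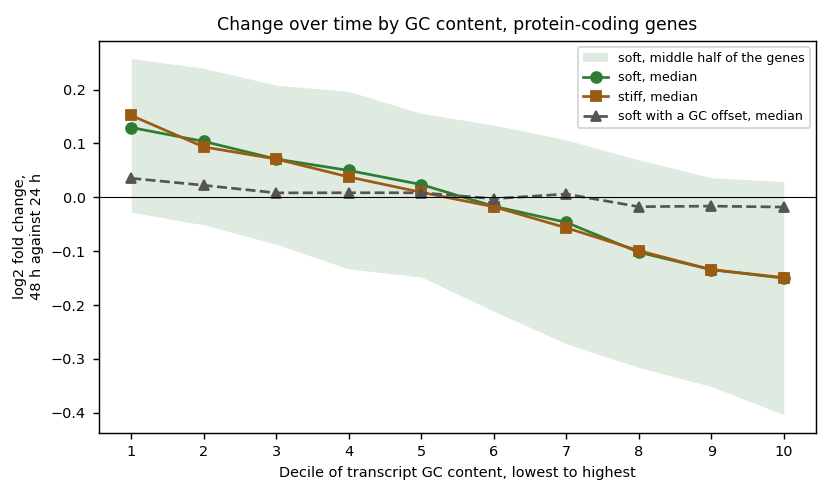
Median log2 fold change of 48 h against 24 h (vertical axis) by decile of transcript GC content (horizontal axis) on soft, on stiff and on soft with the GC offset; the band spans the middle 50% of genes on soft. The soft median goes from 0.13 in the lowest decile to -0.15 in the highest, and from 0.04 to -0.02 with the offset.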

How the data were processed

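RNA of mESCs was made into libraries with a NuGen kit and sequenced in 3 pools. The deposited table holds raw counts per gene in 36 libraries, which the authors made by alignment to mm10 and counting, and the submitters' processing notes name STAR 2.5.2a, HTSeq and DESeq. The strand setting is not given in the sources used here. Counts were modelled with edgeR 4.0.16 in R 4.3.3 (filterByExpr by group, TMM, 1 coefficient for each of 11 groups, glmQLFTest, Benjamini-Hochberg over 17702 genes, threshold 0.05). CPM were taken on TMM-scaled library sizes, fold changes are log2 and 48 h over 24 h, and an SE is the fold change over the root of F. The interaction is the soft change minus the stiff one. Symbols and positions came from the GRCm38 annotation for 49326 of 49671 genes. Named genes were, per list, up to 4 that passed with the largest changes at 5 CPM or more, the first 3 of a list, the 10 largest changes and the 5 of highest CPM with a change of at least 0.5 in each direction, and the 5 smallest interaction p with any of these genes past its threshold; some that the rule names are not reported here. The members and lists were chosen with earlier results of these data known. Alternatives were DESeq2 1.42.0, other scalings, no filter, the compared groups alone, a pool term, a test against 0.5, each library left out, and a GC offset added after the data had been seen. The test was checked on simulated counts. Library numbers name columns only.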

Additional observations from a re-analysis of the deposited data

Results flagged for a closer look

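The change between 24 h and 48 h differed between soft and stiff for 45 genes by edgeR's interaction term. The differences in log2 fold change, soft minus stiff, of those named were 0.73 for Col4a2, 0.79 for Serpinh1, 0.62 for Nes, 0.65 for Amot and 0.47 for Dsp, the 5 smallest p-values. Col4a1, the partner chain of Col4a2, had 0.43, and the actin-binding genes Tpm1, Cnn2, Vcl and Flnc had 0.35, 0.44, 0.33 and 0.45. Krt8 had 0.50, the primitive endoderm adaptor gene Dab2 0.65, the trophoblast regulator gene Hand1 0.75 and the RNase P RNA gene Rpph1 0.65. The imprinted genes Peg10 and H19 had 0.45 and 0.65. Peg10 did not pass on soft, at 2088, 2137 and 2034 CPM at 24 h and 2188, 2233 and 1884 CPM at 48 h with overlapping libraries, while on stiff its means went from 3501 to 2574 CPM. H19 rose on soft, from 25.9 ± 3.82 to 32.5 ± 4.18 CPM (log2 fold change 0.34), with overlapping libraries, and fell on stiff, from 44.6 to 35.7 CPM. Hand1 did not pass on soft, with means of 11.5 to 9.39 CPM, and fell on stiff, from 22.2 to 10.6 CPM. Amot, Dab2, H19 and Rpph1 rose on soft. Soft 48 h and stiff 48 h differed in sequencing pool, and the part of the pool in these differences cannot be told apart from that of the substrate within these 12 libraries.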

How the results depend on the processing

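No paired analysis was possible because the columns carry no replicate numbers. For soft, the 4315 calls became 3302 to 4427 under other scalings, DESeq2, no filter, the groups alone and the GC offset, 3363 to 3933 with a library left out, 345 to 813 with the pool term and 124 against a change of 0.5. The share higher was 53.1%, and 32.4% with library totals alone. For stiff, the 4535 calls became 2219 to 2431 with the pool term and 3621 to 4057 with a library left out. The 45 interaction genes became 189 without a filter, 96 in DESeq2, 0 to 42 with the pool term and 10 to 188 with a library left out (20 without stiff 24 h library 2, 19 without soft 24 h library 3, 18 without stiff 48 h library 1, and 27, 10 and 188 without soft 48 h libraries 1, 2 and 3). The list members, 474 of 1090 called, became 70 to 145 with the pool term and 403 to 431 with a library left out. The causes were not tested, and the pool term raised the median SE. Of 161 named genes that passed, 24 kept sign and call under every alternative and 138 their sign.

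Signs that turned with the pool term, as log2 fold changes at the far end of the assignments, were 0.046 for Actg1, 0.064 for Bmp4, -0.058 for Ccnd2, 0.0072 for Cdh1, 0.043 for Col1a2, -0.15 for Col4a1, -0.14 for Col4a2, -0.048 for Cubn, -0.22 for Dlk1, -0.15 for Dll1, -0.063 for Fasn, 0.086 for Fhl1, 0.23 for Fhl2, -0.22 for Gata4, -0.64 for Gata6, -1.60 for Gm26461, -0.062 for H19, 0.56 for Hand1, 1.18 for Hist1h3c, 0.17 for Hspa1b, 0.26 for Krt7, 0.083 for Lamb2, -0.39 for Lef1, -0.34 for Mixl1, -1.38 for mt-Nd3, 0.057 for Nanog, -0.18 for Nodal, -0.32 for Peg10, -0.21 for Pou3f1, -0.19 for Pou5f1, 0.020 for Serpinh1, -0.20 for Spry4, -0.98 for T (Brachyury), 0.0025 for Tgfb2, -0.25 for Thy1 and 0.082 for Vcl. Of genes that had not passed, Socs3 went to 0.11, Dusp6 to 0.18 and Axin2 to -0.24 in the same way. Genes that had not passed also turned elsewhere. With library totals alone Col4a1 was at -0.036, Nodal at -0.056 and Peg10 at -0.062, and with the GC offset Peg10 was at -0.031 and Socs3 at 0.13. With a library left out Col4a1 ranged from -0.018 to 0.14, Gata6 from -0.011 to 0.37, Nodal from -0.057 to 0.086, Peg10 from -0.036 to 0.10 and Pou5f1 from -0.013 to 0.19. Socs3 ranged from -0.063 to 0.088 and Dusp6 from -0.11 to 0.055.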
